A study of Homo sapiens with 8 samples.

Results

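Genes whose names begin with ZNF followed by a number encode zinc finger proteins or are pseudogenes of such genes, and those lying outside chromosomes 19 and Y are described here for their change in N6-methyladenosine (m6A) after decitabine. The members were taken by name and chromosome from the list of scored RNA features in the authors' deposited table, with no measured value in the rule. They were 189 features in 110 genes, out of 4626 listed features in 3114 named genes. The cells were HL-60, a long-established line of human promyelocytic leukaemia, wild type in genotype. They received decitabine (100 nM) 3 times, at the start and again after 24 and 48 hours, or the vehicle DMSO, and RNA was taken at 72 hours. Total RNA was fragmented and immunoprecipitated with an anti-m6A antibody, and 8 libraries were made, in 4 groups of 2: immunoprecipitate and input, each from decitabine-treated and DMSO-treated duplicate cultures. All groups come from this 1 line.

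Most human ZNF genes encode C2H2 zinc finger proteins, in which repeated fingers, each holding a zinc ion, read out DNA sequence. Many also carry a KRAB domain, which recruits TRIM28 and, through it, the histone methyltransferase SETDB1 to silence transposable elements and other targets. They arose by tandem duplication, so related members often lie side by side, with the densest runs on chromosome 19, and their fingers are usually encoded by 1 long last exon. m6A is deposited on nascent RNA by the METTL3-METTL14 complex and is commonly found in long internal exons and near stop codons. Decitabine is a cytidine analogue that is built into DNA and traps DNA methyltransferases, which lowers DNA methylation as cells divide.

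Each listed feature carries a log ratio and a p-value, and a ratio is given here as a fold on the linear scale with its sign stated. The sources used here do not state which treatment is on top. A positive ratio most likely means more m6A signal after decitabine, because DMSO is the vehicle, but the direction is not settled, and signs are therefore reported as positive and negative. The smallest absolute natural log ratio in the authors' deposited table was 0.501 and the largest p was 0.00455, so this is a list of features that passed thresholds. The number of features tested, and which ZNF features were tested and did not pass, are unknown here, so the counts describe the composition of the list. No value per library is held in it, so no replicate spread can be set beside any ratio, depth is unknown, and no test was made here. Change in m6A and change in RNA amount cannot be separated either, because the sources used here do not give the handling of the input libraries. The table holds no expression levels with which to check the cell line: of 10 myeloid marker genes 2 (CEBPA and SPI1) had a listed feature, and of 6 lymphoid and erythroid markers 0 did.

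More ZNF features outside chromosome 19 were positive than negative. Of the 189 features, 119 had a positive and 70 a negative ratio in the authors' deposited table, a positive share of 63.0% (95% Wilson interval 55.9 to 69.5%, counting error only), beside 56.3% of all listed features outside chromosome Y. Counted once per gene by its feature of smallest p, called the leading feature here, 76 genes were positive and 34 negative. That is 69.1% (Wilson interval 59.9 to 77.0%), beside 58.9% of all listed genes and 63.0% of the 138 listed ZNF genes of chromosome 19. The feature share of the whole list lies inside the members' interval, the per-gene share just below it, and the per-gene share of chromosome 19 inside it. With the leading feature chosen by largest ratio instead, the members' per-gene share was 62.7%. Features of 1 gene share their transcript, so the count of features overstates the number of separate measurements.

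**Figure D1:**
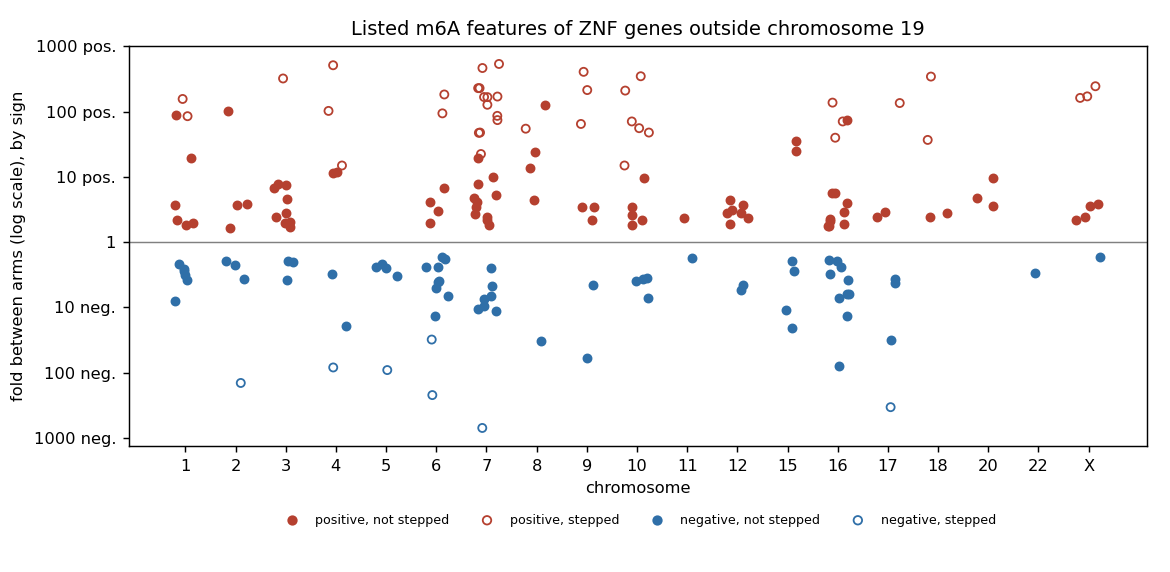
Linear fold of each of the 189 member features (y axis, log scale, positive ratios upward and negative ones downward from 1) by chromosome (x axis), with horizontal spread only to separate points and open circles for stepped ratios. Chromosome 7 holds the most, 24 positive and 8 negative, while the 5 features of chromosome 5 all lie on the negative side.

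Part of the excess of positive over negative member features came with ratios of a particular form. For some features the linear fold was an exact multiple of 0.5, within a relative tolerance of 1e-08, and these are called stepped ratios here. By the authors' deposited table, 47 of the 189 member features (24.9%) were stepped, beside 30.7% of all listed features and 44.4% of the 250 ZNF features on chromosome 19. Of the 47, 40 were positive and 7 negative, and of the 111 stepped features on chromosome 19, 96 were positive and 15 negative. The table holds no counts, so what lies behind these ratios was not tested. Without stepped ratios, 142 member features were left, of which 79 were positive, or 55.6% (Wilson interval 47.4 to 63.5%). The positive share of the whole list also fell, to 45.2%, so the members stayed above the list.

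Leaving out stepped ratios removes mostly positive features, and more of them on chromosome 19, so the shares that remain depend on this choice. Without stepped ratios 50 of the 139 features on chromosome 19 were positive in the authors' deposited table, or 36.0% (Wilson interval 28.5 to 44.2%), and the positive share over all listed features was 45.2% (Wilson interval 43.5 to 47.0%). Counted per gene, 56 of 93 member genes had a positive leading feature (60.2%, Wilson interval 50.1 to 69.6%), against 33 of 91 ZNF genes on chromosome 19 (36.3%) and 45.3% of all genes. With stepped ratios included, the feature shares of both ZNF sets lie above that of the whole list, at 63.0% outside and 58.4% on chromosome 19. Which genes reach the list depends on the unknown number tested, so these shares describe listed features and not the gene families as a whole, and the difference between them was not tested.

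The median positive ratio of the members was smaller than that of ZNF genes on chromosome 19, and the gap nearly closed without stepped ratios. The median positive ratio was 6.82-fold over the 119 positive member features in the authors' deposited table (quartiles 2.80 and 74.6, range 1.65 to 540), beside 10.1-fold over all listed features and 54-fold over ZNF features on chromosome 19. Of the 119, 52 reached 10-fold (43.7%), beside 50.2% of all positive listed features and 69.9% of those of ZNF genes on chromosome 19. Negative ratios were closer together. Their median over the 70 negative member features of the authors' deposited table was 3.92-fold (quartiles 2.47 and 10.3, range 1.66 to 702), beside 3.95-fold over the list and 4.34-fold on chromosome 19. Of the negative member features, 18 (25.7%) reached 10-fold, beside 23.6% over the list and 26.9% on chromosome 19. Without stepped ratios the median positive ratio was 3.47-fold for the members, 3.86-fold for ZNF genes on chromosome 19 and 3.33-fold over the list, and the median negative ratio of the members was 3.79-fold. Most ratios of 10-fold or more had a simple form. When every ratio that was a fraction with a denominator of 10 or less was left out, 3 positive and 6 negative member features reached 10-fold. Over the list 53 positive and 115 negative features then did. This choice was made after seeing the data.

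**Figure D2:**
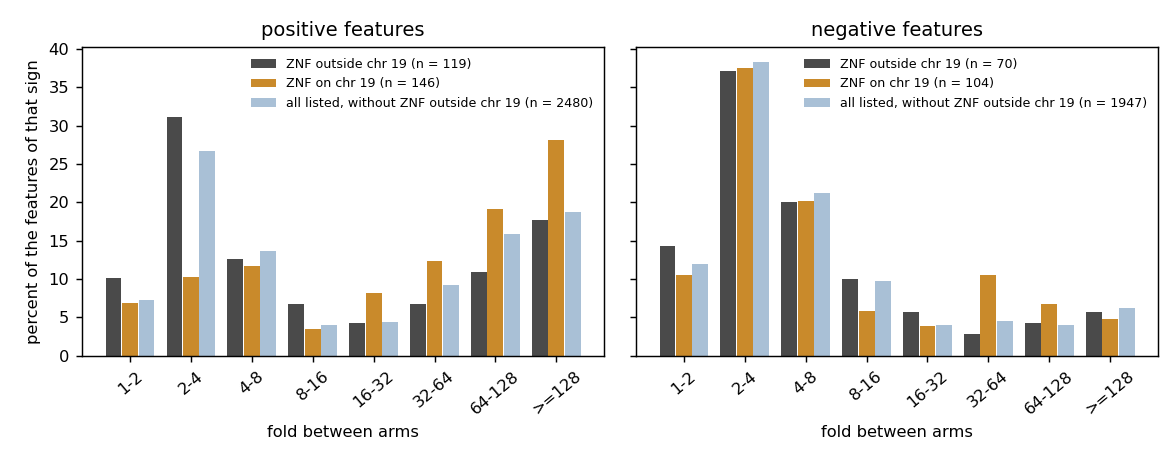
Share of features of each sign (y axis, percent) by size of the linear fold (x axis, doubling classes with an open class at the top), for ZNF genes outside chromosome 19 (dark), ZNF genes on it (orange) and all listed features other than the members (blue, which includes chromosome 19). Among positive features the members peak at 2- to 4-fold with 37 of 119, where the chromosome 19 genes have 15 of 146, and the open top class, which is wider than the others, holds 21 members and 41 features of chromosome 19 genes.

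The members with the smallest p were positive and stepped without exception among the first 10. ZNF141, a KRAB zinc finger gene near the short-arm end of chromosome 4, led with a 516-fold ratio at chr4:373074-373123 (hg38, p = 1.0e-09 in the authors' deposited table). ZNF639 followed with 323.5-fold (p = 1.9e-09 in the authors' deposited table), at a feature of 2 blocks on chromosome 3 that spans a splice junction. ZNF782 on chromosome 9 had 409-fold at p = 2.3e-09 in the authors' deposited table. Among the first 10, 8 lie no more than 33.6% of the gene span from its 3' end, whereas ZNF746 (86.1%) and ZNF767P (95.6%) lie near the 5' end. The remaining 7 were ZNF692 (85.5-fold), ZNF786 (540-fold), ZNF92 (468-fold), ZNF678 (157-fold), ZNF746 (171-fold), ZNF516 (346-fold) and ZNF767P (167.5-fold), with p from 7.7e-09 to 4.7e-08 in the authors' deposited table. ZNF746 encodes PARIS, a repressor that the ubiquitin ligase parkin targets for degradation. ZNF786, ZNF746 and ZNF767P are neighbours on the long arm of chromosome 7. Among the other positive leading features above 200-fold were ZNF37A (350-fold), ZNF275 (246-fold), ZNF12 (230-fold) and ZNF79 (215-fold), again all stepped in the authors' deposited table.

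Among ratios that were not stepped, ZNF7 had the smallest p. Its 4.49-fold positive ratio on chromosome 8 (p = 6.9e-07 in the authors' deposited table) comes from a feature of 100 bases that also lies in the span of COMMD5, so the 2 genes cannot be told apart at that place where strand use in counting is not given.

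Negative leading ratios reached 91-fold. ZNF354C, a KRAB gene on chromosome 5, had a stepped 91-fold negative ratio (p = 0.00221 in the authors' deposited table) and a further negative feature of 3.26-fold. Next came ZNF646 (78.9-fold), ZNF189 (60.3-fold), ZNF251 (32.3-fold), ZNF286A (31.3-fold) and ZNF106 (20.4-fold) in the authors' deposited table, none of them stepped. Each of these ratios was, however, a fraction with a denominator of 10 or less. Their p ran from 0.000229 to 0.00279 in the authors' deposited table, all larger than the 10 smallest p of the members. The list of 10 closed with ZNF267 (13.7-fold), ZNF292 (13.4-fold), ZNF592 (10.9-fold) and ZNF398 (10.5-fold), all negative in the authors' deposited table. ZNF592 belongs to a transcriptional complex with ZNF687 and ZMYND8, and both of its features listed in the authors' deposited table were negative, at 10.9- and 2.74-fold. ZNF638, a nuclear protein linked to silencing of unintegrated DNA with the HUSH complex, also had 2 features in the authors' deposited table, both negative (2.21- and 3.65-fold), at 82.8% and 10.8% of the gene span from the 3' end.

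Member genes often held more than 1 feature. In the authors' deposited table, 64 member genes had 1 feature, 27 had 2, 11 had 3 and 8 had 4 or more, a mean of 1.72 per gene beside 1.48 over all listed genes and 1.81 for ZNF genes of chromosome 19. The share of genes with several features was 41.8%, beside 30.4% and 44.9%. Of the 46 member genes with several features, 23 held both signs, 17 were positive throughout and 6 negative throughout. Both signs in 1 gene were thus found in 50% of such genes, beside 58.4% over all listed genes with several features and 62.9% on chromosome 19.

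ZNF292, a large zinc finger gene mutated in a neurodevelopmental disorder, had the most features. From 5' to 3' its 7 ratios in the authors' deposited table were positive 1.94-fold, negative 2.39-fold, negative 31-fold, negative 3.89-fold, positive 3.02-fold, negative 2.37-fold and negative 13.4-fold, all between 4239 and 10572 nt upstream of the gene's 3' end. The last had the smallest p of the gene in the authors' deposited table, 0.000143. Thus 5 of 7 features were negative, while of the 2 positive ones 1 was the most 5' feature and the other lay among the negative ones. ZNF644, whose protein works with the histone methyltransferases G9a and GLP, had 4 negative features of 3.85-, 8.08-, 2.77- and 3.21-fold and 1 positive feature of 2.23-fold in the authors' deposited table. The positive feature of ZNF644 lay next to the start of the gene, whereas the negative ones lay within 25476 nt of the 3' end. ZNF646 on chromosome 16 read, from 5' to 3' in the authors' deposited table, positive 1.90-fold, positive 2.88-fold, negative 78.9-fold, negative 3.79-fold and positive 2.25-fold. In that gene the negative features sit between positive ones.

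ZNF451, a SUMO ligase, changed sign along its length. Its 4 features lay in order from 5' to 3' as positive 184-fold (stepped), positive 4.21-fold, negative 4.94-fold and negative 220-fold (stepped) in the authors' deposited table, all in the 5' part of the gene at 84.1% to 86.1% of the span from the 3' end. Positive features lay upstream and negative ones downstream. ZNF629 on chromosome 16 held a stepped positive ratio of 40-fold beside 2.10-fold positive, 7.07-fold negative and 2.36-fold negative ratios in the authors' deposited table. ZNF117 on chromosome 7 was positive at all 4 of its features, at 86.5-, 48-, 19.8- and 22.5-fold in the authors' deposited table. They lie in the span of a readthrough gene, ERV3-1-ZNF117.

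**Figure D3:**
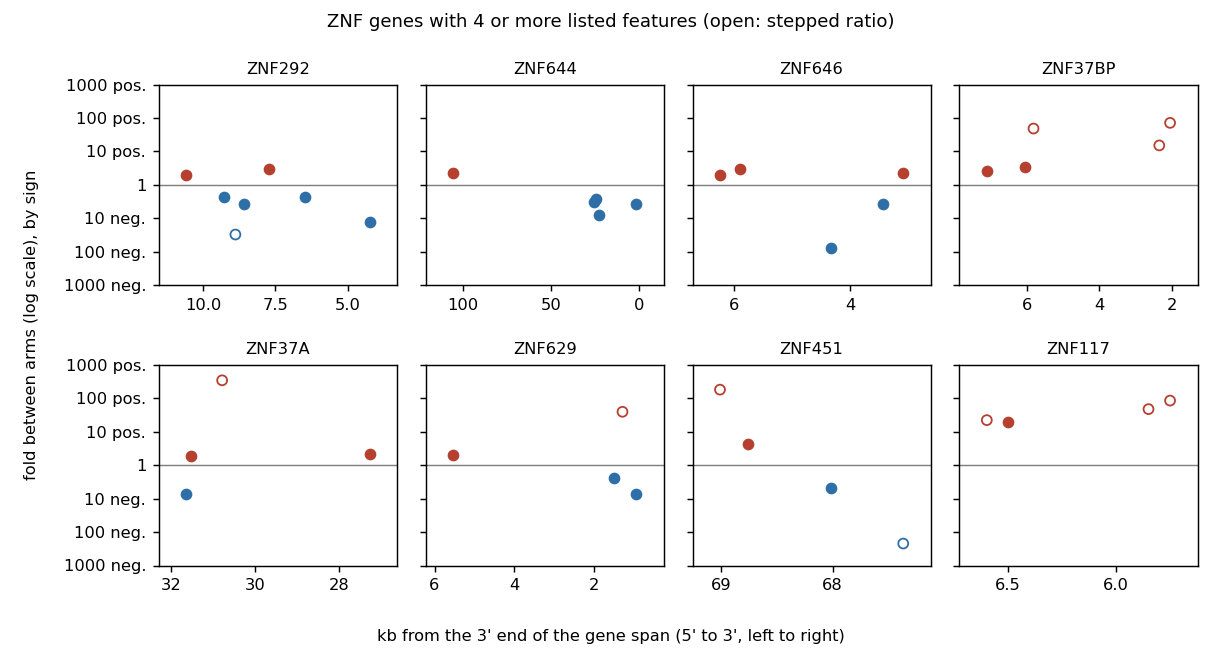
Linear fold of each feature (y axis, log scale, positive upward and negative downward from 1) against its distance upstream of the gene's 3' end (x axis, kb, 5' to 3' from left to right) in the 8 ZNF genes with 4 or more features, with open circles for stepped ratios. ZNF37BP and ZNF117 lie wholly on the positive side, ZNF292 and ZNF644 mostly on the negative side, and ZNF451 passes from positive to negative along the gene.

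More neighbouring features of a gene shared their sign than opposed each other. Of 79 pairs of adjacent member features, 49 had the same sign in the authors' deposited table, or 62.0%, beside 53.3% over all listed genes. The share was 67.6% (23 of 34) for pairs within 500 nt, beside 53.4%, and 57.8% (26 of 45) for pairs farther apart, beside 53.3%. ZNF genes on chromosome 19 had 54.5% of pairs alike, with the order by distance reversed. There it was 48.3% (29 of 60) within 500 nt and 61.5% (32 of 52) farther apart. These differences were not tested. Close neighbours could still oppose each other. The nearest opposite pairs were in ZNF513 (1.91-fold negative, 1.65-fold positive) and ZNF768 (1.94-fold negative, 1.76-fold positive), each 99 nt apart in the authors' deposited table. Of the 5 pairs within 100 nt, 3 had opposite signs. In 4 genes both signs reached 10-fold, namely ZNF273 (47.5-fold positive, 702-fold negative), ZNF286B (136-fold positive, 337-fold negative), ZNF451 and ZNF721 (11.6-fold positive, 19.3- and 83-fold negative), by the authors' deposited table. The 702-fold ratio of ZNF273 was the largest negative one among the members, yet its p of 0.00258 in the authors' deposited table was larger than the 0.000214 of the positive feature 398 nt away. In 7 other genes with both signs no feature reached 10-fold.

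Member features lay toward the 3' end of the gene about as often as those of the whole list. Gene spans were taken from RefSeq on GRCh38.p14, the same assembly family as hg38, and 188 of the 189 features of the authors' deposited table fell inside them, while the ZNF688 feature lay 132 nt past the 3' end. The median distance from the 3' end was 4748.5 nt along the gene (quartiles 2306 and 11319), beside 4022 nt over all listed features and 3091 nt for ZNF genes on chromosome 19. Relative to the span, 51.1% of member features lay in the 3' 20%, beside 52.9% over the list and 66.3% on chromosome 19, and 7.98% lay in the 5' 20%, beside 10.4% and 1.20%. The distance band that stood out by share was 5000 to 10000 nt, with 42 member features (22.3%) beside 12.4% of all other listed features. In that band 29 of 42 were positive, compared with 36 of 58 below 2500 nt, 21 of 37 between 2500 and 5000 nt, and 32 of 51 beyond 10000 nt. Positive features had a median distance of 5159.5 nt and negative ones 4290.5 nt. Distances run along the genome with introns included. Exons were not used here, so the share within the finger exon itself is not given.

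Member genes lay both in runs and alone. When genes with a listed feature no more than 1 Mb from the next were joined, 53 of the 110 genes fell into 16 clusters and 57 stood alone. In the 9 clusters of 3 or more genes, 32 of 39 genes had a positive leading feature in the authors' deposited table (82.1%, Wilson interval 67.3 to 91.0%), in the 7 pairs 8 of 14 (57.1%), and among genes standing alone 36 of 57 (63.2%, Wilson interval 50.2 to 74.5%). Over all listed genes the share was 58.9%, and over listed ZNF genes of chromosome 19 it was 63.0%. The intervals of the larger clusters and of the genes standing alone overlap. Clusters were joined by position only, and their genes may be related in sequence, which was not examined, so they cannot be taken as independent. Stepped leading features were also more frequent in the larger clusters, at 15 of 39 against 14 of 57, and their part in the difference was not tested. Of the 16 clusters, 11 held both signs, 4 clusters of 3 or more genes and 1 pair (ZNF514 and ZNF2) were positive at each leading feature, and 0 were negative throughout.

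The cluster at the long-arm end of chromosome 12 was positive at each of its 5 genes without any stepped ratio. In order along the chromosome, the authors' deposited table gave ZNF605 1.93-fold, ZNF84 2.80-fold, ZNF140 3.10-fold, ZNF10 3.67-fold and ZNF268 4.43-fold, with p from 6.2e-05 to 0.00263. The 5 leading features lie between chr12:132925490 and chr12:133204835 (hg38). The exception inside the cluster was a further feature of ZNF268, negative at 4.49-fold with p = 0.00395 in the authors' deposited table, 2200 nt upstream of the positive one. ZNF10 is the gene from which the KRAB repressor domain of many synthetic repressors was taken. The ZNF140 feature also lies in the span of ZNF891. All 7 member genes listed on chromosome 12 were positive at the leading feature. By feature, 7 of 9 members on that chromosome were positive in the authors' deposited table (77.8%), beside 61.7% of all its listed features.

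Because the leading features of these neighbours shared their sign, the 100 bases upstream of the start are shown for the 3 genes with a single RefSeq start at the edge of the gene span, 5' to 3' on the gene's strand (RefSeq, GRCh38.p14). Capitals mark each CG, the dinucleotide in which decitabine lowers DNA methylation. The windows hold 12, 16 and 7 CG in that order.
ZNF605, chr12:132956307-132956406, minus strand: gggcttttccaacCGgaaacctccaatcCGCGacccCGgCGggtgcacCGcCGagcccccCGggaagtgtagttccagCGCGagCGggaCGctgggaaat
ZNF10, chr12:133130527-133130626, plus strand: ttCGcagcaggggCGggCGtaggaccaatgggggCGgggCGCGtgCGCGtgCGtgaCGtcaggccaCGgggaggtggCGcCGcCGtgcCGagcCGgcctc
ZNF268, chr12:133181395-133181494, plus strand: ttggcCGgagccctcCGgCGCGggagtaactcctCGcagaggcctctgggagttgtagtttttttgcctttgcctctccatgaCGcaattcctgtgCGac

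A CG was found in 97.4% of the 115 windows of this length before the listed starts of 91 member genes, with a median of 10 per window (quartiles 7 and 13). Over all 35116 RefSeq promoter windows of that length 84.3% held a CG, with a median of 5, and ZNF genes listed on chromosome 19 had a median of 8. The whole set covers 27305 genes, whether listed or not, so it is not a background of listed genes. The motif CG reads the same on both strands, so 1 search covers both. The 3 windows shown lie just outside their gene spans. Of the member features, 0 overlapped any RefSeq promoter window. DNA methylation was not part of the data, so the match is a description of sequence only. ZNF84 has 2 listed starts, and the listed start of ZNF140 lies inside its gene span, so neither is shown.

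**Figure D4:**
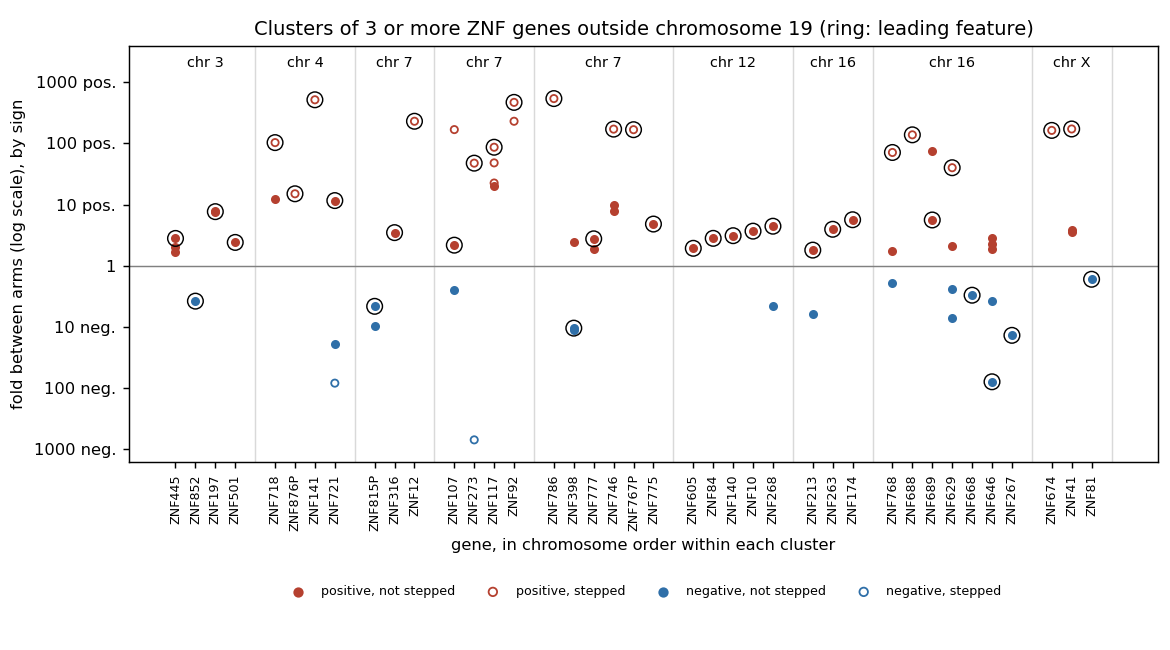
Linear fold of each feature (y axis, log scale, positive upward and negative downward from 1) in the 9 clusters of 3 or more ZNF genes, 1 column per gene in chromosome order (x axis), with rings around leading features and open circles for stepped ratios. The chromosome 12 cluster shows filled, ringed points from 1.93- to 4.43-fold and 1 negative second feature, while ringed points of the chromosome 4 and the middle chromosome 7 clusters reach 516- and 468-fold as open circles.

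The other clusters with positive leading features throughout differed in size of ratio, and each also held negative second features. On chromosome 16, the neighbours ZNF213, ZNF263 and ZNF174, which carry a SCAN domain used to pair proteins, had leading ratios of 1.80-, 3.94- and 5.65-fold in the authors' deposited table, none stepped, and ZNF213 had a second feature negative at 6.25-fold. On chromosome 4, the authors' deposited table gave stepped leading ratios of 103-fold for ZNF718, 15-fold for ZNF876P and 516-fold for ZNF141, followed by 11.6-fold for ZNF721, which was not stepped and had further negative features of 19.3- and 83-fold. On the proximal long arm of chromosome 7, ZNF107 (2.17-fold), ZNF273 (47.5-fold), ZNF117 (86.5-fold) and ZNF92 (468-fold) were positive in the authors' deposited table, the last 3 of them stepped, while ZNF273 and ZNF107 also had negative features of 702- and 2.50-fold. When stepped ratios were left out and the leading feature chosen again, 5 of 5 genes on chromosome 12, 3 of 3 on chromosome 16, 2 of 2 on chromosome 4 and 2 of 2 on chromosome 7 were positive, so the latter 2 clusters each lost 2 genes.

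In the mixed clusters opposite leading signs lay side by side. Near the end of the long arm of chromosome 7, ZNF786 (540-fold), ZNF777 (2.75-fold), ZNF746 (171-fold), ZNF767P (167.5-fold) and ZNF775 (4.80-fold) were positive while ZNF398 between them was negative at 10.5-fold in the authors' deposited table. ZNF398 also had a positive feature of 2.46-fold and a further negative one of 11.2-fold. On chromosome 16 the leading features of the run of 7 genes began with positive ZNF768 (71-fold), ZNF688 (138-fold), ZNF689 (5.60-fold) and ZNF629 (40-fold) and ended with negative ZNF668 (3.03-fold), ZNF646 (78.9-fold) and ZNF267 (13.7-fold) in the authors' deposited table. Counted by feature, that run had 10 positive and 7 negative, and ZNF768, ZNF629 and ZNF646 each held both signs. On chromosome 3, ZNF445, a regulator of imprinted loci, had 3 positive features of 2.79-, 2.05- and 1.70-fold, ZNF197 2 positive features of 7.66- and 7.77-fold and ZNF501 1 of 2.40-fold, whereas ZNF852 among them was negative at 3.79-fold in the authors' deposited table. On the X chromosome ZNF674 (163-fold) and ZNF41 (172-, 3.90- and 3.57-fold) were positive and their neighbour ZNF81 was negative at 1.66-fold in the authors' deposited table. On the short arm of chromosome 7, ZNF316 (3.48-fold) and ZNF12 (230-fold) were positive and the pseudogene ZNF815P was negative at both features (4.61- and 9.64-fold) in the authors' deposited table. Stepped leading ratios here were those of ZNF786, ZNF746, ZNF767P, ZNF768, ZNF688, ZNF629, ZNF674, ZNF41 and ZNF12. Without stepped ratios, the run on chromosome 16 had 2 positive and 4 negative genes. The long-arm run on chromosome 7 and that on chromosome 3 each had 3 and 1. Those on X and the short arm of chromosome 7 each had 1 and 1.

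By chromosome, members were found on 19 chromosomes and both signs on 15 of them. Chromosome 7 had the most, with 32 features in 17 genes, 24 of them positive and 14 stepped, and members made up 12.2% of all listed features of that chromosome in the authors' deposited table. Chromosome 16 followed with 23 features (13 positive, 10 negative) and chromosome 6 with 17, of which 11 were negative. The 11 negative features of chromosome 6 were spread over all 5 member genes there. ZNF292 held 5 of them, ZNF318 and ZNF451 2 each, and ZNF184 and ZNF322 1 each. On chromosome 10, 11 of 15 features were positive, 5 of them in ZNF37BP and 3 in its relative ZNF37A. Chromosome 5 held 5 features in 3 genes, all negative, and chromosomes 18 and 20 held 4 and 3 features, all positive. With so few genes on these chromosomes, the counts of a single sign rest on 3 genes each.

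Well-studied members were found on both sides. ZNF217, an oncogenic factor that binds METTL3, was positive at 3.64-fold (p = 0.00150 in the authors' deposited table). ZNF281, a regulator of stem-cell identity, was positive at 19.8-fold near the 5' end of its gene (p = 4.1e-05 in the authors' deposited table). ZNF148, which binds GC-rich promoter elements, was negative at 1.99-fold (p = 0.00399 in the authors' deposited table). ZNF202, a repressor of lipid metabolism genes, was positive at 2.34-fold, and ZNF704 was positive at 127-fold in the authors' deposited table. Of 15 genes set down to be reported whatever their value, 8 had a listed feature, and ZNF143, ZNF367, ZNF384, ZNF462, ZNF521, ZNF687 and ZNF750 had none, which does not show that their m6A was unaltered.

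Related copies gave both like and unlike ratios. ZNF37A had a stepped 350-fold positive leading ratio, with further ratios of 1.87- and 2.19-fold positive and 7.10-fold negative in the authors' deposited table. Its copy ZNF37BP on the other arm of chromosome 10 was positive at all 5 features, at 71-, 15-, 48-, 3.42- and 2.58-fold in the authors' deposited table. ZNF322 and its processed copy ZNF322P1 were negative at 4.07- and 4.59-fold in the authors' deposited table. Their features lay 3819 and 3821 nt from the 3' ends of the 2 genes. ZNF286A was negative at 31.3-fold, and ZNF286B, from a duplication on chromosome 17, held a stepped 337-fold negative and a stepped 136-fold positive feature in the authors' deposited table. The sources used here do not give how reads that match several copies were placed, so ratios of these copies are uncertain. In all, 22 features of 15 member genes lay in the span of another gene, and for these the gene named may not be the source of the reads.

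The 47 member genes left over by the naming rule had a positive share near that of the list. That rule took the 10 largest leading ratios of each sign and the 10 smallest p. The upper ends, medians and stepped counts of the remaining genes were therefore limited in advance and are given as description only. Some of these genes are also described above. Their leading features in the authors' deposited table were positive in 29 genes (61.7%, beside 58.9% of all listed genes), from 1.84- to 211-fold with a median of 5.27-fold and 7 of them stepped, and negative in 18 genes, from 1.76- to 7.54-fold with a median of 3.01-fold and 0 stepped. ZNF503 held the 211-fold ratio, with further features of 9.67-fold positive and 3.96-fold negative in the authors' deposited table. ZNF3 held the 7.54-fold negative ratio, although 2 further features of that gene were positive at 74.5- and 4.11-fold in the authors' deposited table. ZNF2 and ZNF514, the pair on chromosome 2 with positive leading features, were positive at 104- and 3.81-fold in the authors' deposited table, but ZNF514 also had a stepped negative feature of 143.5-fold. The ratio of ZNF2 was a fraction with a denominator of 10 or less. ZNF131 (2.18- and 2.47-fold) and ZNF830 (4.21- and 3.70-fold) were negative at both of their features in the authors' deposited table, and ZNF652 (2.41- and 2.88-fold) and ZNF169 (2.21- and 3.47-fold) positive at both.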

How the data were processed

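1 table was used, deposited by the authors, with a position, gene, log ratio and p-value per scored feature, per the file headers. The submitters' processing notes name STAR 2.7.3a and hg38. How features were scored, input and depth corrected for and duplicates combined is not stated in the sources used here. The ratios were deposited by the authors on an unnamed log scale, read here as natural log. Read so, 1415 features had an exact multiple of 0.5 as their fold, and 0 had with base 2. Nothing marks the deposited p-value as adjusted, and it was used as given.

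Python 3.11.15, pandas 2.3.3, scipy 1.17.1 and matplotlib 3.10.9 were used to count features, signs and folds, with 95% Wilson intervals, and the counting was tested on simulated data. Gene spans and promoters came from RefSeq GRCh38.p14. No test was made, since the table holds no value per library, and depth per sample is unknown. Named genes were the 10 leading features of smallest p, the 10 of largest ratio in each sign, genes with 4 or more features, genes of clusters of 3 or more, and a list reported whatever its value. Pairs and individual features singled out beyond that, and the distance band singled out by share, were chosen after their values were seen. The members and lists were chosen with earlier results of these data known. Motifs within features were not examined. Alternatives left out stepped ratios or p of 0.001 and above, merged features within 100 nt, and altered the cluster distance.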

Additional observations from a re-analysis of the deposited data

How the results depend on the processing

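Of 28 alternatives to 7 summary values, 21 stayed within the 95% interval of the value (Wilson for shares, from ranks for medians) or within 1.5 times the count, and 7 did not. The positive share of member features, 63.0%, became 55.6% without stepped ratios and 71.3% at p under 0.001. Over all listed features the positive share was 45.2% and 60.6% under these 2 settings. The median positive ratio, 6.82-fold, became 3.47-fold without stepped ratios and 12.1-fold at p under 0.001, the latter within its wide interval. Over the list this median was 3.33-fold and 42-fold under the same settings. Genes with both signs numbered 23 of 46 with several features, and 7 of 23 at p under 0.001, where fewer features remained per gene. An alternative chosen after seeing the data left out every ratio that was a fraction with a denominator of 10 or less. It gave a positive share of 54.0%, a median positive ratio of 2.88-fold and a share of genes with a positive leading feature of 59.3%, against 69.1%. Over the list that median was then 3.08-fold and that share of genes 44.8%. The cause was not tested. The positive share of member features stayed above 50% in each of these. Its Wilson interval nevertheless included 50% without stepped ratios (47.4 to 63.5%) and without such fractions (45.3 to 62.4%). Over all listed features the positive share without such fractions was 44.9%. Joining genes within 0.5 Mb or 2 Mb put 45 or 60 genes in clusters, against 53.

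No paired analysis was possible because the table holds no value per library, and for the same reason no replicate was left out. Depth is unknown, and no read support can be given for any ratio. The list holds features past thresholds, so genes without a listed feature have no value.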

Other observations

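Partners of KRAB zinc finger proteins and other zinc finger families outside chromosome 19 were read in the same way. Of 24 genes of a list of KRAB partners, written with earlier results known, 12 had a listed feature, and 5 led with a positive and 7 with a negative ratio in the authors' deposited table, beside 58.9% positive over all listed genes. Positive were CHD4 (60.5-fold), NSD1 (629-fold), RESF1 (163-fold), MPHOSPH8 (3.41-fold) and UHRF1 (2.80-fold), and negative were ATF7IP (25.5-fold), MORC2 (3.59-fold), SETDB1 (2.01-fold), SMARCAD1 (6.73-fold), TASOR (3.81-fold), TASOR2 (3.69-fold) and TRIM24 (2.59-fold), all in the authors' deposited table. SETDB1 is the H3K9 methyltransferase of the KRAB pathway, ATF7IP its stabilising partner, and TASOR and MPHOSPH8 are subunits of the HUSH silencing complex. ATF7IP, MORC2, TASOR and TRIM24 each also had a positive feature, of 179-, 50.3-, 134- and 1.94-fold, and NSD1 a negative one of 5.52-fold, in the authors' deposited table. TRIM28, which KRAB domains bind, had no listed feature.

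Of 51 genes taken by name from other zinc finger families outside chromosome 19, 30 led positive and 21 negative (58.8% positive) in the authors' deposited table. Genes with a ZBTB name had 13 positive and 8 negative by the authors' deposited table. They include the antisense RNA ZBTB11-AS1 and the pseudogene ZBTB12BP. In the same order, ZKSCAN had 2 and 2, ZSCAN 1 and 3, ZFP 3 and 2, and ZMYM 3 and 0. ZDHHC had 3 and 2, ZC3H 2 and 1, ZFYVE 1 and 1, and ZSWIM 0 and 2. ZHX and ZCCHC each had 1 and 0. These families are small, and no difference between them and the ZNF genes was tested.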
